A study of Mus musculus with 6 samples.

Results

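The genes described here make cholesterol and fatty acids or send cholesterol out of the cell. They were taken as a fixed list of 37 mouse genes, and each was represented by its probe set with a single gene symbol and the highest mean over all 6 arrays. Of the 37, 35 were measured, out of 19937 genes on the array. Acat2, the thiolase that joins acetyl-CoA units, and Nr1h2, a liver X receptor, have no probe set with a single symbol in the annotation and were not analysed here. The 35 comprise 17 enzymes of sterol synthesis, 6 genes of its control and of sterol transport, 9 genes of fatty acid synthesis and 3 of sterol efflux.

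The study compared double-negative (DN) thymocytes, the T-cell precursors without CD4 or CD8, in 2 groups of 3 arrays. The first group, labelled RAG-/- and control, holds DN thymocytes of Rag2-/- mice, whose block in antigen receptor rearrangement arrests them as DN cells. The second, labelled DNTLX3+ and tumoral, holds sorted DN thymocytes of wild-type mice given the retrovirus pMSCV-GFP-TLX3 and grown with OP9-DL1, an irradiated stromal line that presents a Notch ligand. TLX3 is a homeobox oncogene of T-cell leukaemia. The labels give 1 protocol for all samples: C57Bl/6 mice of 4 to 6 weeks, and for transduced cells a culture of 4 to 5 weeks in medium with 10% fetal calf serum and supernatants of cells secreting IL-7 (1%) and Flt3 ligand (2.5%). Serum carries cholesterol and fatty acids, and it is not clear from the text whether Rag2-/- cells went through any culture, so genotype, virus and culture cannot be told apart between the groups. No array of cells given the empty vector was analysed here. Nothing in the labels ties a replicate to its own mouse or culture, so p-values here measure the spread between samples only, part of which may be technical. In bulk samples such as these, fewer cells of a type and less RNA per cell cannot be told apart.

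Cholesterol is built from acetyl-CoA through mevalonate, isoprenoids and squalene, and the ring-closed product lanosterol is then trimmed to cholesterol. When membranes run short of sterol, Scap carries the SREBP factors (Srebf1, Srebf2) to the Golgi, where they are cut and released to switch on these enzymes, and the Insig proteins hold Scap back when sterol is plentiful. Excess sterol is turned into oxysterols that activate liver X receptors (Nr1h2, Nr1h3), which switch on the exporters Abca1 and Abcg1. Dividing lymphocytes draw on the synthesis arm for new membrane.

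The promoters of 29 of the 37 genes were found in a RefSeq table of build GRCm38.p6, which covers 250 bases before and 50 after each transcript start. Those of Abca1, Fasn and Tm7sf2 are shown because they belong to members whose level differed between the groups. That of Hmgcs1, the synthase that starts the mevalonate pathway, was chosen after the search. It was the only member promoter found to hold an exact match to the sterol element sequence given below. Each is written 5′ to 3′ on the strand of the gene. Capitals mark matches, on either strand, to the sterol element (TCACNCCAC), the CCAAT box (CCAAT), the GC box (GGGCGG) or a direct repeat of the liver X receptor half-site with a spacer of 4 bases.
Abca1, chr4:53159846-53160145, minus strand: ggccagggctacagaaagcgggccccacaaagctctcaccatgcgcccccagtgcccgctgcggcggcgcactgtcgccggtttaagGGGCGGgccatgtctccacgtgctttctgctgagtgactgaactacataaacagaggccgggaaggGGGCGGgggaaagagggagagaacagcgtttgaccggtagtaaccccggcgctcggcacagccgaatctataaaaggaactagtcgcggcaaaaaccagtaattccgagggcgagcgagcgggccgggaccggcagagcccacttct
Fasn, chr11:120824498-120824797, minus strand: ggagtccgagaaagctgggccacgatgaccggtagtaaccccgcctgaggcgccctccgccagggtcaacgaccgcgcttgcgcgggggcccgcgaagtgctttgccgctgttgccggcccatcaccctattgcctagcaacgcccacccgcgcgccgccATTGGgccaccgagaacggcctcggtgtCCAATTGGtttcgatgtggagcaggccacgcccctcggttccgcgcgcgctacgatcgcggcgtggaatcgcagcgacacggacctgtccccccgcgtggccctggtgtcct
Tm7sf2, chr19:6067801-6068100, minus strand: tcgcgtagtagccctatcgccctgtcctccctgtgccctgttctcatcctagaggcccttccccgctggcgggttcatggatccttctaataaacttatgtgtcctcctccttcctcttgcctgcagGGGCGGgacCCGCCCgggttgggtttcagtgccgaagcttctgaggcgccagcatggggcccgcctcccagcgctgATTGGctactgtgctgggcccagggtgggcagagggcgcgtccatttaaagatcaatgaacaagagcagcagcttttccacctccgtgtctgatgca
Hmgcs1, chr13:119690101-119690400, plus strand: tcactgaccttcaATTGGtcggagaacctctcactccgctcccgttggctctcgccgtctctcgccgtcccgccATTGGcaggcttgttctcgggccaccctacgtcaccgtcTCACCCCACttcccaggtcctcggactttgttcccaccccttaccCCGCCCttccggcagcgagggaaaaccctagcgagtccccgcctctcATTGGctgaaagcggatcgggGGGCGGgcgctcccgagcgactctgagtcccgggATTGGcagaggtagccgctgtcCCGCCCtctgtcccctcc
The Hmgcs1 promoter held 1 sterol element, 4 CCAAT boxes and 3 GC boxes. That of Fasn held 3 CCAAT boxes, a pair of which overlap, and that of Tm7sf2 held 1 CCAAT box and 2 GC boxes. Abca1 had 2 GC boxes and no CCAAT box in this window. A CCAAT box was found in 21 of the 29 member genes with an entry (72.4%), against 41.1% of all 27025 genes in the table. A GC box was found in 22 (75.9%), against 38.2%. All 35 measured members lie above the median level on the arrays. The shares among such genes are not given here, so a difference from other expressed genes is not shown. An exact match to the sterol element was found in 1 of 29, against 1.44% of all genes. Variants of that sequence, and sites outside the window, were not searched for, so genes without a match may still hold such a site. The exact liver X receptor repeat occurs in 4 of the 27025 genes, too few for its lack of a match in 29 to say anything of them. These are matches of letters and do not show that a factor binds.

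Values are log2 expression as deposited, so a difference of 1 is a 2-fold change, and all differences are TLX3 minus Rag2-/-. Most members differed little between the groups. At a limma adjusted p under 0.05 with an absolute difference of at least 1, 1 of 35 was lower (2.86%) and 0 were higher, against 5.07% lower and 1.44% higher among all genes. Over both directions that background was 6.51%. At an unadjusted p under 0.05 with the same minimum, the counts were again 1 and 0. At the adjusted p alone, 3 rose (8.57%), namely Fdft1, Fdps and Fasn, and 4 fell (11.4%), namely Abca1, Abcg1, Scd1 and Tm7sf2, against 23.0% and 19.4% of all genes (42.4% together). Among genes above the median level on the arrays, a class to which all 35 belong, those shares were 15.1% and 30.6%. Without TLX3 replicate 1, 8 rose, against 23.1% of all genes, and 4 fell, against 19.3%. The 8 include Acaca by its brighter probe set, while its other probe set had a difference of -0.31 over all arrays. Without any other array, the number that rose was 1 each time. The shares of all genes in those fits are not given here, so a general loss of calls cannot be told apart. All 3 TLX3 arrays lay above all 3 Rag2-/- arrays for 5 members (14.3%, against 32.3% of all genes) and below them for 10 (28.6%, against 26.0%). Among genes above the median level, these shares were 22.2% above and 41.3% below. The median difference of the 35 was 0.030, against 0.11 over all genes and -0.14 over the 10756 genes above the median level.

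**Figure D1:**
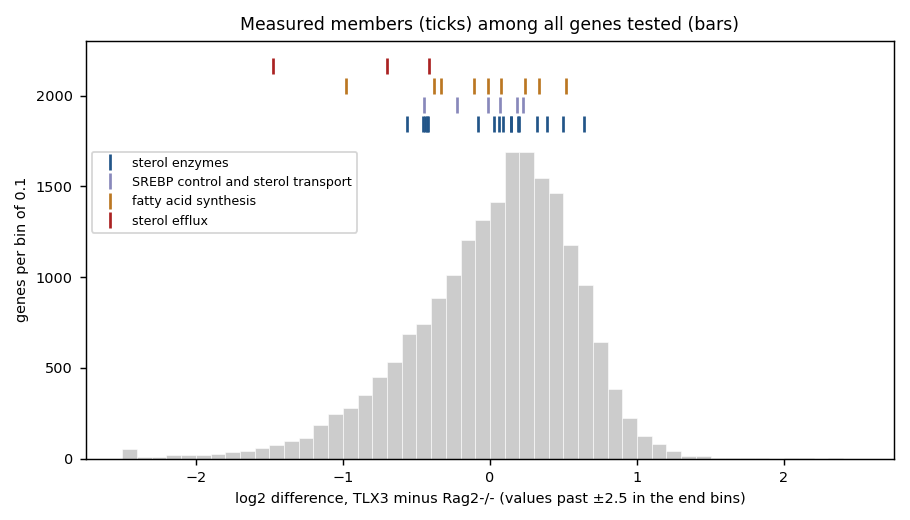
Log2 differences (TLX3 minus Rag2-/-, horizontal axis) of all 19937 genes as bars of width 0.1, with the number of genes on the vertical axis, and of the 35 members as ticks, 1 row for each list. The ticks of sterol synthesis, its control and fatty acid synthesis lie on both sides of 0, and the 3 of sterol efflux all lie below it, from -1.48 to -0.42.

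All 3 measured genes of sterol efflux stood lower on every TLX3 array than on every Rag2-/- array, with a median difference of -0.70. Of all genes 26.0% did so, and of genes above the median level, a class that holds all 3, 41.3%. At the adjusted p 2 of the 3 fell, against 19.4% of all genes and 30.6% of genes above the median level. Abca1, the transporter that loads cellular cholesterol onto apolipoprotein particles, stood at 7.62, 7.52 and 7.98 on Rag2-/- replicates 1, 2 and 3 and at 5.98, 6.56 and 6.14 on the TLX3 arrays. The lowest Rag2-/- array stood far above the highest TLX3 array, and the difference was -1.48 ± 0.19 (SE; limma adjusted p = 0.000617). It was the only member past both thresholds, and it stayed past them when any single array was left out, at -1.65 to -1.34. In limma treat, which tests against the minimum difference itself, its adjusted p was 0.66. The TLX3 mean of 6.23 lay at the edge of the array medians (6.22 to 6.35), where signal may be background, so the true size of the fall is not known.

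Abcg1, which exports cholesterol to high-density lipoprotein, was at 9.97, 9.83 and 9.78 in the Rag2-/- arrays and at 8.77, 9.33 and 9.38 in the TLX3 arrays. It fell by 0.70 ± 0.18 (SE; limma adjusted p = 0.0124), a 1.63-fold difference with no overlap between groups. Without Rag2-/- replicate 1 the adjusted p was 0.0531, at a difference of -0.65. Nr1h3, the liver X receptor alpha that drives both exporters, read 6.60, 6.77 and 6.71 against 6.28, 5.97 and 6.57. Its 3 TLX3 arrays all lay lower, but the difference of -0.42 ± 0.16 (SE) missed the threshold (limma adjusted p = 0.0655). It passed without TLX3 replicate 3 (-0.57, adjusted p = 0.0197), when the array medians were made equal (-0.48, 0.0386), after cyclic loess (-0.47, 0.041) and without probe sets under the median (0.0471). The TLX3 mean of Nr1h3, 6.27, also lay among the array medians (6.22 to 6.35), where signal may be background.

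Markers of myeloid and dendritic cells, of which macrophages are known for strong Abca1, moved the same way. Of 20 such markers, 18 fell past both thresholds, and the mean level of the list was 8.22 to 8.40 in the Rag2-/- arrays and 5.55 to 5.73 in the TLX3 arrays. Only Cd14 lay under the array median on every array. Abca1 was highest in Rag2-/- replicate 3, where the myeloid list stood at 8.23, against 8.40 in replicate 1 and 8.22 in replicate 2. Thymic epithelial markers, of which 8 of 14 also fell past both thresholds, stood at 8.31, 8.24 and 8.78 on Rag2-/- replicates 1, 2 and 3. Stromal and adipocyte markers stood at 6.34, 6.33 and 6.59. Both lists had the same order as Abca1. Abcg1, at 9.97, 9.83 and 9.78, and Nr1h3, at 6.60, 6.77 and 6.71, had other orders. NK markers, of which 9 of 14 fell past both thresholds, stood at 7.33, 7.44 and 7.26, again in an order unlike that of Abca1. Gene length moved with the groups as well: among genes above the median level, the 2150 longest (60995 bases or more) had a median difference of -0.38 and the 2150 shortest 0.13. Abca1, at 129200 bases, is among the longest, as are Elovl5 (-0.38), Elovl6 (-0.015) and Acaca (0.24 on its brighter probe set). Abcg1, at 60291 bases, is among the 2150 next in length, whose median was -0.25. The other members of that class had positive differences: Fdft1 (0.64), Acly (0.33), Scap (0.22), Fads2 (0.076), Srebf2 (0.066) and Nsdhl (0.030). Scd1, at 13260 bases, and Tm7sf2, at 5030 bases, are shorter and also fell. The part of cell content or of gene length in these falls was not tested.

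**Figure D2:**
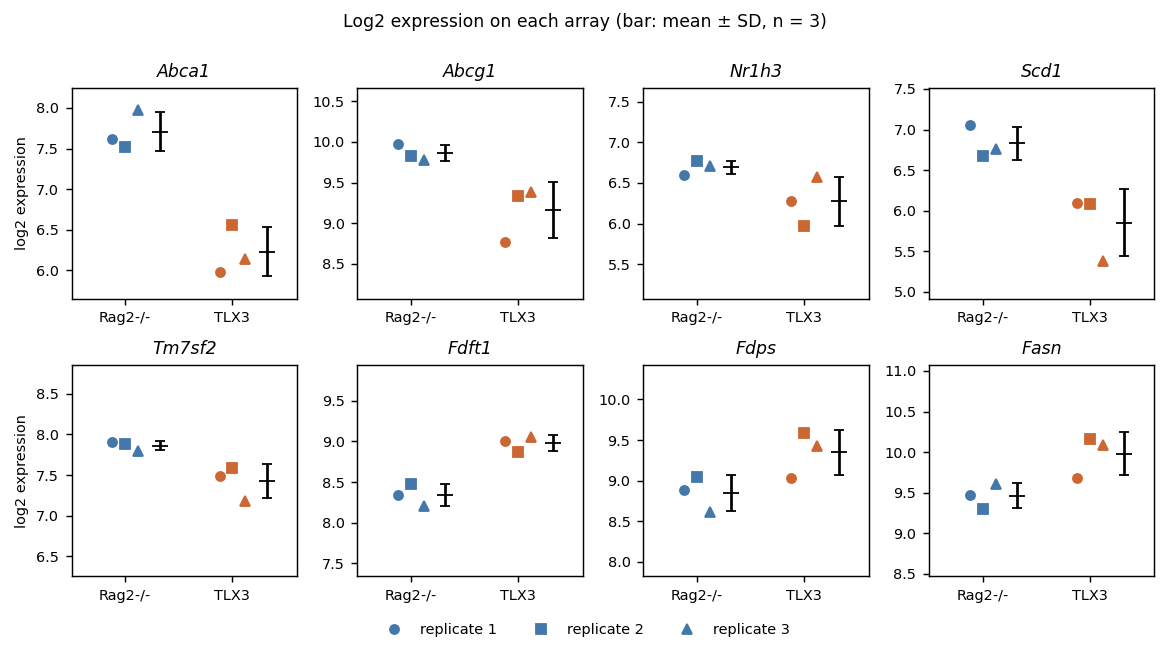
Log2 expression (vertical axis, each panel spanning 2.6 units) of 8 genes on each Rag2-/- and TLX3 array. Symbols mark replicates and black bars the mean ± SD (n = 3 in each group). Abca1, Abcg1, Nr1h3, Scd1 and Tm7sf2 show every TLX3 array below every Rag2-/- array, Fdft1 and Fasn show the reverse, and for Fdps the arrays overlap.

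The sterol enzymes differed in both directions. Of 17, 2 rose (Fdps and Fdft1), 1 fell (Tm7sf2) and 14 did not pass the adjusted p, and their differences ran from -0.57 to 0.64 with a median of 0.092. In the order of the pathway, the mevalonate steps came first. Hmgcs1 was at 9.32, 9.24 and 8.96 in the Rag2-/- arrays and 8.25, 8.88 and 9.13 in the TLX3 arrays. These overlap, and its -0.42 ± 0.22 (SE) did not pass (limma adjusted p = 0.147), although it did without TLX3 replicate 3 (-0.61, adjusted p = 0.0499). The kinases Mvk and Pmvk and the decarboxylase Mvd, which turn mevalonate into the first isoprenoid, had differences of 0.060, 0.092 and 0.14 with SEs of 0.12, 0.15 and 0.14. Idi1, the isomerase that follows, had 0.20 ± 0.18 on its brighter probe set and 0.074 ± 0.21 on the other. The brighter probe set carries a number that lies among those of chromosome 2 genes (20 of 20 neighbours), whereas Idi1 is on chromosome 13, as the dimmer set's neighbours are.

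The steps that lead into squalene held both rises. Fdps, which makes farnesyl diphosphate, was at 8.88, 9.05 and 8.62 in the Rag2-/- arrays and 9.04, 9.58 and 9.43 in the TLX3 arrays, so the lowest TLX3 array fell within the other group. The difference was 0.50 ± 0.18 (SE; limma adjusted p = 0.0462), a 1.41-fold rise. Its call was lost without Rag2-/- replicates 1, 2 or 3 or TLX3 replicates 2 or 3 (adjusted p of 0.106, 0.0548, 0.166, 0.121 and 0.102) and when the array medians were made equal (0.094). Fdft1, the squalene synthase that commits farnesyl diphosphate to sterols, was at 8.34, 8.48 and 8.21 in the Rag2-/- arrays and 9.01, 8.87 and 9.06 in the TLX3 arrays. Its groups did not overlap, and it rose 1.56-fold (0.64 ± 0.13 SE, limma adjusted p = 0.00489), with 0.57 to 0.71 when single arrays were left out. A second probe set of Fdft1, at 7.93, 7.73 and 7.52 against 8.44, 8.39 and 8.42, gave 0.69 ± 0.14 (adjusted p = 0.00455). Sqle, the oxygenase that acts on squalene and is often limiting, had 0.19 ± 0.15 and did not pass (adjusted p = 0.325), and it passed after renewed quantile normalization (0.38, 0.0379) and after cyclic loess (0.36, 0.0416).

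Enzymes that act after squalene had differences of both signs. Lss, which closes the rings to lanosterol, read 7.70, 7.64 and 7.49 against 6.67, 7.40 and 7.39. All TLX3 values were below, with TLX3 replicate 1 far under the other two, and the -0.46 ± 0.20 (SE) did not pass (limma adjusted p = 0.0908). Cyp51, the demethylase that acts on lanosterol, had 0.15 ± 0.17. Tm7sf2, a sterol reductase, was at 7.91, 7.88 and 7.80 in the Rag2-/- arrays and 7.49, 7.59 and 7.19 in the TLX3 arrays. Its groups did not overlap, and it fell by 0.44 ± 0.14 (SE; limma adjusted p = 0.0318), or 1.36-fold. That call was lost after renewed quantile normalization (-0.24, adjusted p = 0.222), after cyclic loess (-0.29, 0.13), without Rag2-/- replicates 1, 2 or 3 (0.11, 0.0976 and 0.0709) and without TLX3 replicate 3 (0.0859).

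Msmo1, the methyl oxidase of the demethylation complex, was at 9.54, 9.36 and 9.17 in the Rag2-/- arrays and 9.60, 9.75 and 9.88 in the TLX3 arrays. All TLX3 arrays lay above, by a small gap, and the 0.39 ± 0.14 (SE) fell just short of the threshold (limma adjusted p = 0.0539). It passed after renewed quantile normalization (0.51, 0.0144), after cyclic loess (0.53, 0.0103), without dim probe sets (0.0421 and 0.0356), with an intensity trend (0.0337), with array weights (0.0302) and without TLX3 replicate 1 (0.46, 0.0284). Its partners Nsdhl and Hsd17b7 had 0.030 ± 0.18 and 0.32 ± 0.23, and Hsd17b7 passed without TLX3 replicate 1 (0.56, adjusted p = 0.0391).

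The last steps to cholesterol had negative differences that missed the threshold. Sc5d, a sterol desaturase, was at 9.04, 8.89 and 8.75 in the Rag2-/- arrays and 7.78, 8.74 and 8.45 in the TLX3 arrays, which touch but do not cross. Its difference was -0.57 ± 0.23 (SE; limma adjusted p = 0.0696), and -0.29 without TLX3 replicate 1. Ebp, the sterol isomerase, had -0.43 ± 0.19 (adjusted p = 0.0983). Both passed without TLX3 replicate 2 (-0.77 with adjusted p = 0.0206 for Sc5d and -0.63 with 0.0134 for Ebp) and with array weights (0.0418 and 0.0483). Dhcr7, which takes dehydrocholesterol to cholesterol, had -0.080 ± 0.19, and 0.14 without TLX3 replicate 1.

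None of the 6 genes of SREBP control and sterol transport passed by limma, and at an unadjusted p under 0.05 the count was 1, lower. Srebf2, the main factor of the sterol genes, was at 10.15, 10.05 and 10.07 in the Rag2-/- arrays and 9.94, 10.32 and 10.20 in the TLX3 arrays, a difference of 0.066 ± 0.14 (SE). Srebf1, the factor of the fatty acid genes, was at 8.88, 8.97 and 9.09 against 8.43, 8.95 and 8.90, or -0.22 ± 0.16. In both genes TLX3 replicate 1 was the lowest of all 6 arrays. Scap, their escort, was at 9.07, 9.04 and 9.14 against 9.14, 9.44 and 9.34, with 0.22 ± 0.13, and passed after renewed quantile normalization (0.37, adjusted p = 0.0264), after cyclic loess (0.38, 0.0229) and without TLX3 replicate 1 (0.31, 0.0495).

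Neither retention factor passed the threshold. Insig1, itself an SREBP target, was at 8.52, 8.54 and 8.18 in the Rag2-/- arrays and 8.21, 8.60 and 8.98 in the TLX3 arrays, with 0.18 ± 0.20 (SE; limma adjusted p = 0.477), and -0.011 without TLX3 replicate 3. Insig2 was at 7.98, 8.07 and 7.96 against 7.14, 7.56 and 7.96, with -0.45 ± 0.19 (limma adjusted p = 0.0874). TLX3 replicate 3 nearly reached the Rag2-/- arrays, and without TLX3 replicate 3 it passed (-0.65, adjusted p = 0.0155). Stard4, a carrier of sterol between membranes, had -0.013 ± 0.18.

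**Figure D3:**
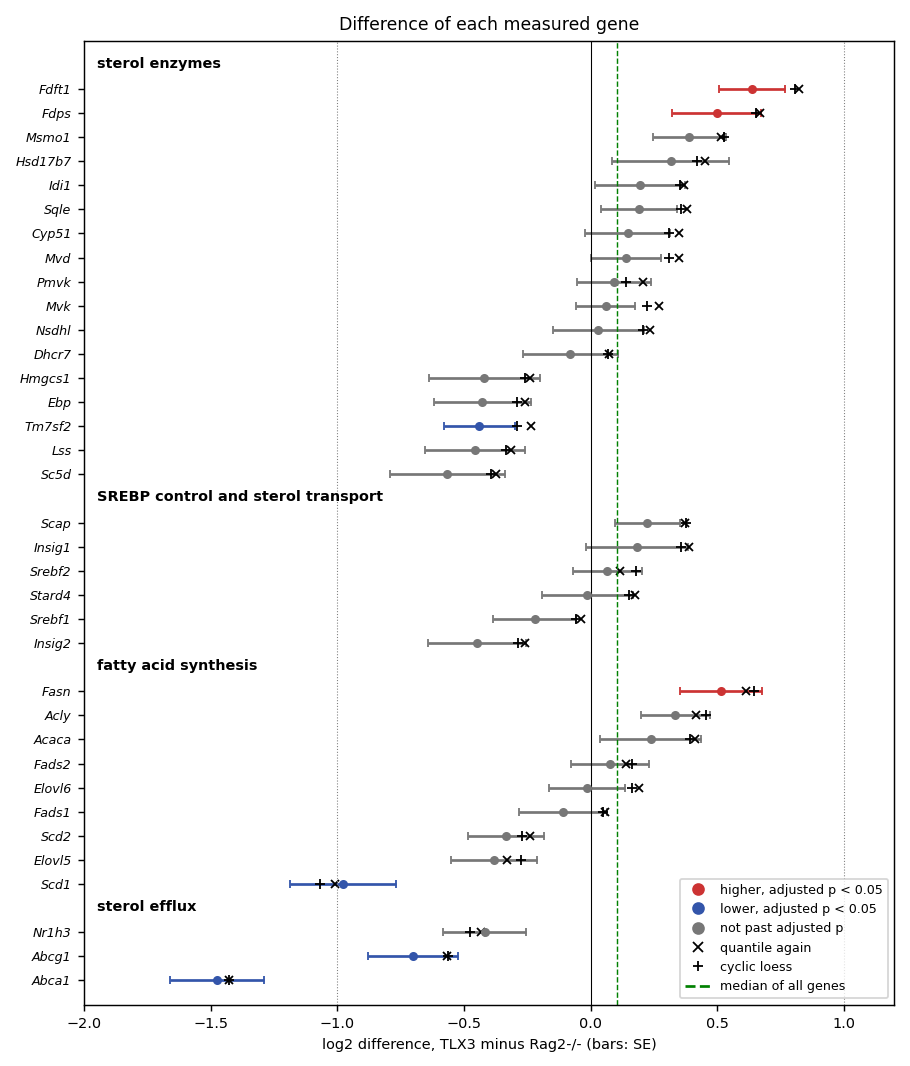
Log2 difference of each measured gene (TLX3 minus Rag2-/-, horizontal axis, bars SE), grouped by list and coloured by the limma adjusted p. Crosses and plus signs give the values after renewed quantile normalization and cyclic loess, the dashed line the median of all genes (0.11) and dotted lines differences of -1 and 1. All 17 sterol enzymes lie further right after both rescalings, while Abca1 stays near -1.43. The median over genes above the median level also moved right, from -0.14 to 9.5e-05 and -0.030.

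Fatty acid synthesis held differences of both signs. Of 9 genes, Fasn rose, Scd1 fell and 7 did not pass, and the median difference was -0.015. Acly, which cuts citrate to cytosolic acetyl-CoA, was at 9.79, 9.84 and 9.69 in the Rag2-/- arrays and 9.89, 10.21 and 10.22 in the TLX3 arrays. All TLX3 arrays were above, with 0.33 ± 0.14 (SE; limma adjusted p = 0.0741), and it passed after renewed quantile normalization (0.42, 0.019), after cyclic loess (0.45, 0.00929), with an intensity trend (0.0451), with array weights (0.0197) and without TLX3 replicate 1 (0.44, 0.0136). Fasn, the synthase that builds palmitate, was at 9.47, 9.30 and 9.61 against 9.68, 10.17 and 10.09. The groups did not overlap, although TLX3 replicate 1 lay only just above Rag2-/- replicate 3, and Fasn rose 1.43-fold (0.52 ± 0.16 SE, limma adjusted p = 0.0304). Its call was lost without Rag2-/- replicates 1, 2 or 3 or TLX3 replicates 2 or 3 (adjusted p of 0.0856, 0.116, 0.0503, 0.079 and 0.0778) and when the array medians were made equal (0.0635).

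Acaca, the carboxylase that supplies malonyl-CoA to Fasn, gave opposite signs on its probe sets. The brighter read 9.04, 8.99 and 8.74 against 8.72, 9.47 and 9.29, or 0.24 ± 0.20 (SE), and passed without TLX3 replicate 1 (0.46, limma adjusted p = 0.0265). The dimmer read 8.16, 8.10 and 7.88 against 7.26, 7.97 and 7.99, or -0.31 ± 0.20. The number of the brighter set lies among genes of chromosome 12 (18 of 20 neighbours) and that of the dimmer among genes of chromosome 11 (19 of 20), where Acaca is, so no direction is given for this gene.

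The stearoyl-CoA desaturases, which put the first double bond into long fatty acids, both stood lower on every TLX3 array. Scd1 was at 7.06, 6.67 and 6.76 in the Rag2-/- arrays and 6.10, 6.08 and 5.38 in the TLX3 arrays. The groups did not overlap, and it fell by 0.98 ± 0.21 (SE; limma adjusted p = 0.00613), just short of the minimum difference. It passed that minimum after renewed quantile normalization (-1.01), after cyclic loess (-1.07), with equal array medians (-1.04) and with array weights (-1.18). It did so too without Rag2-/- replicates 2 or 3 (-1.06 and -1.01) or TLX3 replicates 1 or 2 (-1.10 and -1.09), and stood at -0.74 without TLX3 replicate 3. Its TLX3 values lay under the array medians and may be background. Scd2, the form most used outside the liver, was at 11.41, 11.32 and 11.27 against 10.71, 11.16 and 11.13, lower on every TLX3 array but with -0.33 ± 0.15 not past the threshold (limma adjusted p = 0.102).

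Among the elongases, Elovl5, which extends polyunsaturated fatty acids, read 10.48, 10.47 and 10.39 against 9.69, 10.29 and 10.23, with -0.38 ± 0.17 (SE; limma adjusted p = 0.0946). Elovl6, which extends palmitate, had -0.015 ± 0.15. The desaturases of polyunsaturated fatty acids, Fads1 and Fads2, had -0.11 ± 0.17 and 0.076 ± 0.15.

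The sterol enzymes tended to be low on the same arrays of a group. In the Rag2-/- group, replicate 3 was the lowest array for 17 of 17 sterol enzymes, by 0.060 to 0.37 under the group mean, whereas it was the lowest for 40.8% of all genes and 51.8% of genes above the median level. Its median deviation over the 17 was -0.19, against -0.036 over genes above the median level. After both rescalings (quantile, then cyclic loess) it was the lowest for 16 of 17, against 38.6% and 37.2% of the genes above the median level. The same array was the lowest for 3 of 6 genes of control and transport, 6 of 9 fatty acid genes and 1 of 3 efflux genes, and so for 27 of the 35 members. Rag2-/- replicate 3 also had the highest mean level of thymic epithelial markers, 8.78 against 8.31 and 8.24, and the part of this in the sterol values was not tested.

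In the TLX3 group, replicate 1 was the lowest array for 13 of 17 sterol enzymes, 6 of 6 genes of control and transport and 8 of 9 fatty acid genes. Over the 35 members this was 29 (82.9%), against 41.2% of all genes and 60.4% of genes above the median level. After renewed quantile normalization and cyclic loess it was 26 and 25, against 45.6% and 40.0% of genes above the median level. After the same 2 rescalings, the sterol enzymes dropped to 10 and 10 of 17. Genes of control and transport had 6 and 5 of 6, and fatty acid genes 8 and 8 of 9. T-lineage markers were also lowest on TLX3 replicate 1, at a mean of 9.88 against 10.26 and 10.20, and the part of this in the members' values was not tested. TLX3 replicate 1 also had the narrowest signal range, with an interquartile range of 2.47 against 2.85 and 2.75 in the other TLX3 arrays and 3.09 to 3.18 in the Rag2-/- arrays. The median SD of the members was 0.29 in the TLX3 group and 0.11 in the Rag2-/- group, against 0.20 and 0.10 over all genes.

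**Figure D4:**
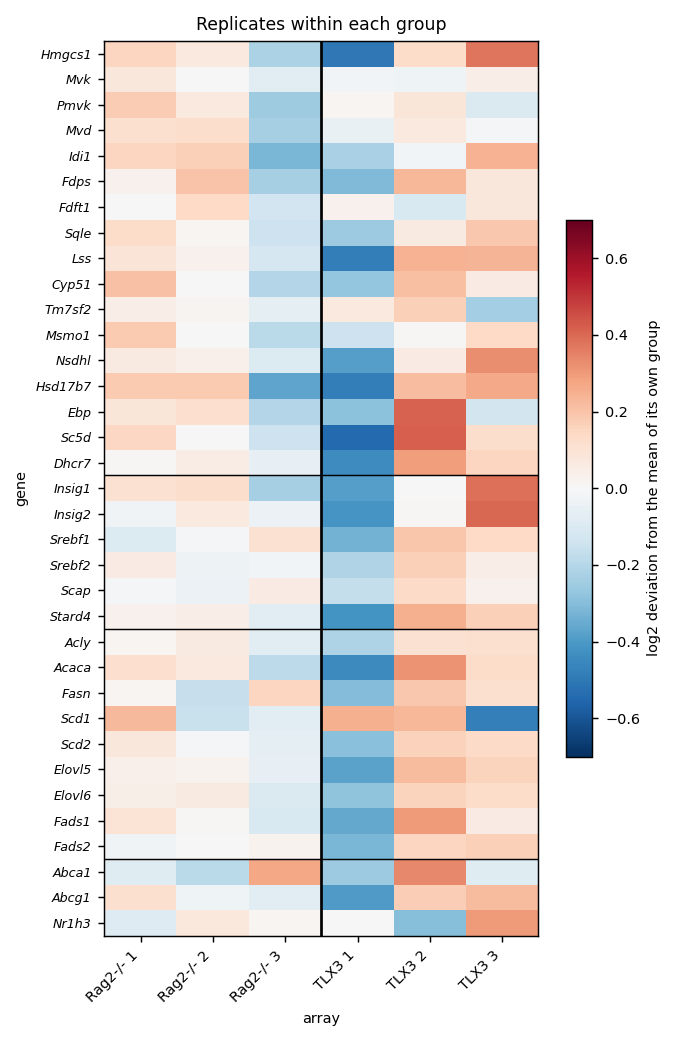
Deviation of each array (columns) from the mean of its own group, in log2 units (colour), for the 35 measured genes (rows), with lines between the 4 lists. The column of Rag2-/- replicate 3 is below the group mean for all 17 sterol enzymes, and that of TLX3 replicate 1 is the lowest of its group for 29 of 35 genes.

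A wider list of 50 genes of lipid supply, storage and transport was examined beside the members, and 42 were measured. Past both thresholds 1 fell and 0 rose by limma, and at the adjusted p alone 9 fell (21.4%) and 3 rose (7.14%), with a median difference of -0.083. Over all genes these shares were 5.07% lower and 1.44% higher past both thresholds, and 19.4% lower and 23.0% higher at the adjusted p alone, so the share that fell lay near that of all genes. At an unadjusted p under 0.05 with the minimum difference, the counts were also 1 and 0. The fall past both was Fabp5, a fatty acid carrier, at 8.80, 8.82 and 9.22 in the Rag2-/- arrays and 7.08, 7.95 and 7.76 in the TLX3 arrays (-1.35 ± 0.23 SE, limma adjusted p = 0.00212). Its second probe set gave -2.21 ± 0.28 (adjusted p = 0.000637), and the brighter set is numbered among chromosome 9 genes while Fabp5 is on chromosome 3.

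Other genes of that list fell by less than the minimum difference. Mylip, a ligase that liver X receptors induce to degrade lipoprotein receptors, was at 8.61, 8.77 and 8.78 against 7.70, 7.70 and 7.95 (-0.93 ± 0.13 SE, limma adjusted p = 0.000971). The lysosomal lipase Lipa (-0.78), the acyl-CoA synthetase Acsl4 (-0.70), the acetyl-CoA synthetase Acss2 (-0.61), the late endosomal sterol carrier Stard3 (-0.68), Ggps1, which draws farnesyl diphosphate away from sterols (-0.65), and the acyltransferase Gpam (-0.57) also fell. Me1, a source of NADPH, fell on its brighter probe set (-0.70). Its other set gave 0.83 but is numbered among chromosome 13 genes (19 of 20 neighbours), whereas Me1 is on chromosome 9, and the TLX3 means of both sets (5.57 and 5.99) lay under the array medians. The rises were Mid1ip1, an activator of the acetyl-CoA carboxylases (0.62), and the sterol exporters Abcg5 (0.56) and Abcg8 (0.47), which lay under the array medians. The calls of Abcg8 and Gpam were lost after renewed quantile normalization (0.26, adjusted p = 0.352, and -0.38, 0.116) and after cyclic loess (0.20, 0.459, and -0.40, 0.0788). Lbr, a sterol reductase that also anchors chromatin, had -0.17 ± 0.16.

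Several facts of the whole series bear on these values. Tlx3 was higher in the TLX3 arrays (6.45 to 7.09) than in the Rag2-/- arrays (5.40 to 5.52), where it lay under the array medians and may be background, so the difference of 1.24 ± 0.18 (SE; limma adjusted p = 0.00103) does not give its true size. Which species the insert came from is not stated. Rag2 differed by -0.30 (adjusted p = 0.124), which does not check the label because the place of its probes is not known. Of 14 T-lineage markers all lay above the array median on some array, with mean levels of 10.5 to 10.6 in the Rag2-/- and 9.88 to 10.3 in the TLX3 arrays. Past both thresholds 2 of them fell and 0 rose, and at the adjusted p alone 10 fell and 1 rose, with a median difference of -0.56. Past both thresholds 8 of 14 thymic epithelial markers and 9 of 14 NK markers fell and 0 of either rose, and at the adjusted p alone 10 fell and 1 rose in each list. The rises, named after their values were seen, were Cldn3 (0.97, limma adjusted p = 0.00315) among the epithelial and Gzma (0.76, 0.00782) among the NK markers. Of 3 coreceptor markers 1, Cd8b1, rose past both thresholds. Of 16 stromal and adipocyte markers, which OP9 cells could bring, 0 rose and 3 fell past both thresholds, and 1 rose and 4 fell at the adjusted p alone. The rise was in Acta2, named after its values were seen (0.52, limma adjusted p = 0.0382), and its call was lost after renewed quantile normalization (0.45, 0.0635) and cyclic loess (0.38, 0.0795). In that list Adipoq, Fabp4, Plin1, Lum, Pdgfra and Tagln were under the array median on every array. Of 7 B-lineage markers 0 moved past both thresholds, and 2 rose and 2 fell at the adjusted p alone. The part of these cells in the members' values was not tested beyond what is given here.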

How the data were processed

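Total RNA labelled with biotin was hybridised to 6 arrays with 1 colour, 3 in each group, per the labels. Values came deposited as log2 expression per probe set. The authors ran RMA from affy with R 2.9.0 (submitters' processing notes), and no label or header names a build for the array annotation. Of 34760 probe sets, 6568 unlisted ones, taken to be controls, were left out and 28192 were tested with limma 3.58.1 in R 4.3.3 (lmFit and eBayes, two-sided, Benjamini-Hochberg, no covariate). Gene names came from the platform annotation. Of the tested probe sets 21640 had 1 symbol, 1321 several and 5231 none, and 19918 of 19937 symbols were in the RefSeq table. Folds are given only for genes with both group means above the array medians, and they depend on the scaling. The difference of Fdft1, for example, was 0.64 as deposited and 0.82 after renewed quantile normalization.

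Members and lists were chosen with earlier results of these data known. All members are named, with values on every array for those that passed or led their group. Deviations of same-numbered arrays correlated at -0.11, 0.06 and -0.00, and those of differently numbered arrays at -0.15 to 0.12. With so few arrays this cannot decide whether the replicate numbers pair them. Detection calls were not used, and the number of arrays limits the precision. Plots used matplotlib 3.10.9. Alternatives were other scalings, filters, variance models, probe sets and left-out arrays.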

Additional observations from a re-analysis of the deposited data

How the results depend on the processing

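The number of members lower past both thresholds, 1, became 2 after quantile normalization again, with equal array medians, after cyclic loess and with array weights, and 0 with limma treat. It ranged from 1 to 2 when single arrays were left out. No member was higher past both thresholds in the main analysis or under any alternative run. At the adjusted p alone, the 3 higher members became 7 after quantile normalization again (against 18.4% of all genes), 7 after cyclic loess (16.8%), 1 with equal array medians, 5 with an intensity trend and 5 with array weights, and ranged from 1 to 8 with arrays left out. The 4 lower members ranged from 2 to 6 with arrays left out. Where no share of all genes is given beside a count, a general change in calls cannot be told apart. The list medians moved by less than the spread between replicates, from -0.81 to -0.50 for efflux, from 0.021 to 0.27 for the sterol enzymes and from -0.11 to 0.16 for fatty acid synthesis. The median over all genes went from 0.11 to 0.039 after quantile normalization again and to 0.00047 after cyclic loess. That of the 35 members went from 0.030 to 0.18 and 0.16. Genes above the median level, a class that holds all 35, also moved up, from -0.14 to 9.5e-05 and -0.030.

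Differences near 0 changed sign. After quantile normalization again these were Dhcr7 (0.072), Stard4 (0.18), Elovl6 (0.19) and Fads1 (0.058). After cyclic loess they were Dhcr7 (0.068), Stard4 (0.15), Elovl6 (0.16) and Fads1 (0.048). With array weights they were Dhcr7 (0.035), Stard4 (0.10) and Elovl6 (0.059), and with equal array medians Mvk (-0.00078) and Nsdhl (-0.030). Acaca turned to -0.037 as the mean of its probe sets and to -0.31 when each gene's probe set was taken from those numbered among its own chromosome, an alternative chosen after seeing the data. With single arrays left out, ranges that crossed 0 were Pmvk (-0.032 to 0.18), Nsdhl (-0.13 to 0.22), Dhcr7 (-0.23 to 0.14), Insig1 (-0.011 to 0.38), Srebf2 (-0.016 to 0.17), Stard4 (-0.14 to 0.20), Elovl6 (-0.091 to 0.13), Fads1 (-0.26 to 0.071) and Fads2 (-0.0077 to 0.23). With the replicate number as a block, 3 members were higher and 4 lower at the adjusted p, and 1 was lower past both thresholds, as without it. The cause of the changes was not tested.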
